A study of Arabidopsis thaliana with 8 samples.

Results

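The regions described here are DNA:RNA immunoprecipitation (DRIP) peaks that lie between the starts of head-to-head genes in the chromosome arms of Arabidopsis thaliana. A member is a peak whose midpoint lies in no protein-coding gene and between the starts of adjacent divergently transcribed protein-coding genes, with the minus-strand gene on the left, the plus-strand gene on the right and the starts at most 2000 bases apart. The gene-poor pericentromeric stretches of the 5 chromosomes were left out. The rule used positions and the gene annotation (RefSeq, TAIR10.1) and no measured level. It took 297 of the 14180 nuclear peaks of the Col-0 list (2.09%) and 275 of the 13549 of the ndx1-4 list (2.03%).

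The libraries came from 10-day-old seedlings of the Col-0 wild type and of ndx1-4, a mutant in which a T-DNA insertion disrupts NODULIN HOMEOBOX (NDX). For each genotype there were 1 input library, 2 libraries immunoprecipitated with S9.6, an antibody against DNA:RNA hybrids, and 1 immunoprecipitated library treated with RNase H, which digests the RNA of such hybrids. Whole seedlings were cross-linked with formaldehyde and their nucleic acid was sonicated, so every value is an average over many plants and cell types. The peaks of each genotype formed 1 list, and 1 insertion allele stands for the disruption of NDX. No value below therefore has an error between replicates, no test between the genotypes was made, and genotype cannot be told apart from the depth of the libraries behind each list. Intervals are 95% Wilson intervals for shares and cover counting error only.

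An R-loop is a stretch of DNA in which an RNA strand pairs with its template and leaves the other DNA strand unpaired. In divergent gene pairs both transcripts start from the same spacer and run away from each other, so that the spacer holds the promoters of both genes and, where it is short, a bidirectional promoter. R-loops are known to form where transcription starts, and more readily where a G-rich or purine-rich RNA pairs with its pyrimidine-rich template. NDX is a homeodomain-containing protein known for binding the unpaired strand of an R-loop at the FLC locus.

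Sequences of 7 members are printed first as examples. They are 4 of the highest-scoring members, with and without a long run of 1 base class, and the member with the nearest gene starts. The others are a further member across both starts and the highest-scoring member of the ndx1-4 list that the Col-0 list lacked. No low-scoring member is among them, so they do not stand for the whole group. Only the part between the gene starts is shown, at most 300 bases around the longest run, 5′ to 3′ on the plus strand of TAIR10.1. Capitals mark the longest run made of purines only (A and G) or of pyrimidines only (C and T) in that part. The first sequence, from chr1:9708097-9708396, holds a purine run of 164 bases. The second is from chr2:7955185-7955484, the third from chr4:13958154-13958453 and the fourth, with many short pyrimidine blocks and a longest run of 11 bases, from chr3:9996558-9996857.
AT1G27870-AT1G27880: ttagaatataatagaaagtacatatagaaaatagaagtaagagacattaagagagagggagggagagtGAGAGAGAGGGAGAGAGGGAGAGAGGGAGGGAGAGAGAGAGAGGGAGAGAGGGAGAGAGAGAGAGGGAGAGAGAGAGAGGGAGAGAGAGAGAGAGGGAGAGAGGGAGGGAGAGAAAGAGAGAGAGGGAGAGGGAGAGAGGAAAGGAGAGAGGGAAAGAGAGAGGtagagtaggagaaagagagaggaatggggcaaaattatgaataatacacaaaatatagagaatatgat
HBI1-AT2G18320: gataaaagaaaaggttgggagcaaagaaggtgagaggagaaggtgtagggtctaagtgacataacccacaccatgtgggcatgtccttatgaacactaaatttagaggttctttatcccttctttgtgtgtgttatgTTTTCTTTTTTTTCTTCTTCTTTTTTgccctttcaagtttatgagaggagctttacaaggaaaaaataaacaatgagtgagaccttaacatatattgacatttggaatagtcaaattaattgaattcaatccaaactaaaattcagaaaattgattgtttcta
AT4G28080-AT4G28085: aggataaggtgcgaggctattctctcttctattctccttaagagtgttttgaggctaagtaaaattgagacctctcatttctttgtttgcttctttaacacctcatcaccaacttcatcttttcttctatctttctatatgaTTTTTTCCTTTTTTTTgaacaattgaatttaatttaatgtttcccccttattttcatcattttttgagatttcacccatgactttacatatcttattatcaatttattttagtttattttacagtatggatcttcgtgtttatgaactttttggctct
AT3G27100-AT3G27110: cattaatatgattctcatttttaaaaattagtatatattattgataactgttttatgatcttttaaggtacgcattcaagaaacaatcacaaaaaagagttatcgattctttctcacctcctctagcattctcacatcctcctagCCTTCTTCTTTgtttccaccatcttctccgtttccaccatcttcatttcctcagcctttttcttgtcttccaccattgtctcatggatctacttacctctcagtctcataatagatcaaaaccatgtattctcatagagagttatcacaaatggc

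The next sequences come from members that covered both gene starts, with the whole spacer shown. For ADF8-ULP1B the spacer is chr4:281073-281131, with 59 bases between the starts, and pyrimidines exceeded purines by 62.7% of its bases on the plus strand. The TEX1-AT5G56140 spacer, chr5:22725100-22725237, has 138 bases, of which purines and pyrimidines differed by only 5.80%.
ADF8-ULP1B: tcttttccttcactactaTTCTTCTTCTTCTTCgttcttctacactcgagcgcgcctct
TEX1-AT5G56140: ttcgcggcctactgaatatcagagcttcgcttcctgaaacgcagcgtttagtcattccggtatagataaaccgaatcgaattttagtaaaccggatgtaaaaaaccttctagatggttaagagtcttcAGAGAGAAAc

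The last sequence is that of an ndx1-4 member without a counterpart in the Col-0 list, AT3G51120-AT3G51130 at chr3:18992841-18993040. Its GC content was 21.5%, and its longest run was a purine run of 23 bases, nearly all A.
AT3G51120-AT3G51130: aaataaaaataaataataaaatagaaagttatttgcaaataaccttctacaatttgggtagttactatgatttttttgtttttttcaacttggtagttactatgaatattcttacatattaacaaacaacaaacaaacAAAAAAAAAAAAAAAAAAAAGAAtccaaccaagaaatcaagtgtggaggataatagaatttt

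To see how common such peaks were, all spacers that the rule admits were counted. The arms held 3636 head-to-head spacers with starts at most 2000 bases apart, with a median distance of 674 bases. Of these, 284 held a Col-0 member (7.81%, 6.98 to 8.73%) and 262 an ndx1-4 member (7.21%, 6.41 to 8.09%). A member was present in both lists in 231 spacers, in Col-0 only in 53 and in ndx1-4 only in 31, so 315 spacers had a member in at least 1 list. By chromosome the share ran from 6.33% on chromosome 4 to 8.75% on chromosome 5 in Col-0, and from 6.52% on chromosome 4 to 7.83% on chromosome 5 in ndx1-4. The intervals of the 5 chromosomes overlapped in each list.

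Spacers of the other gene orientations served as the comparison. Tandem spacers, which lie between genes of the same strand and hold 1 promoter, had a peak midpoint in 624 of 9892 cases in Col-0 (6.31%, 5.85 to 6.80%) and in 623 in ndx1-4 (6.30%, 5.84 to 6.79%). Convergent spacers, which lie between gene ends and hold no start of a protein-coding gene, had one in 177 of 3060 in Col-0 (5.78%, 5.01 to 6.67%) and in 161 in ndx1-4 (5.26%, 4.52 to 6.11%). These shares depend on how long the spacers are, so midpoints were also counted per Mb of spacer. Head-to-head spacers then had 107 midpoints per Mb in Col-0 and 98.8 in ndx1-4, tandem spacers 102 in both lists, convergent spacers 124 and 114, and the arms as a whole 121 and 115. Per base, head-to-head spacers in the arms thus held no more peak midpoints than the arms did on average, and close to as many as tandem spacers.

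Spacers with a longer distance between the starts held a member more often. In Col-0 the share was 1.28% (12 of 934) for starts 1 to 250 bases apart, 3.82% (21 of 550) for 251 to 500, 7.67% (71 of 926) for 501 to 1000, 13.2% (95 of 720) for 1001 to 1500 and 16.8% (85 of 506) for 1501 to 2000. In ndx1-4 the same classes gave 1.18%, 3.82%, 6.91%, 11.7% and 16.2%. Tandem spacers of the same length followed nearly the same course, from 1.11% to 16.6% in Col-0, whereas convergent spacers of 1501 to 2000 bases held a Col-0 peak in 24.5% of cases (19.3 to 30.7%) and an ndx1-4 peak in 23.6% (18.4 to 29.7%). The density of midpoints changed little over the classes of head-to-head spacers, from 102 to 108 per Mb in Col-0 and from 94.1 to 102 per Mb in ndx1-4. Longer spacers were therefore occupied more often at nearly constant density per base. The median distance between starts was 1247 bases in spacers with a Col-0 member, 1244.5 with an ndx1-4 member and 623 in spacers without a member in either list.

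**Figure D1:**
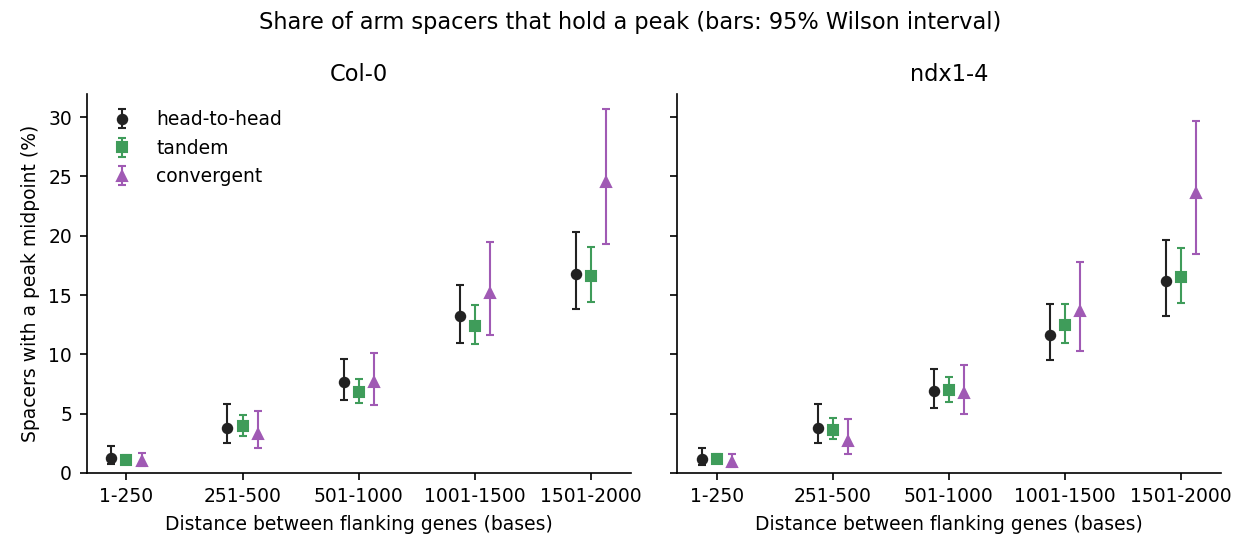
Share of arm spacers that held a peak midpoint (y axis, %) against the distance between the flanking genes (x axis, bases), for head-to-head (circles), tandem (squares) and convergent (triangles) spacers in the Col-0 list (left) and the ndx1-4 list (right), with 95% Wilson intervals. Head-to-head and tandem spacers lay close together in every class, and convergent spacers lay above them at 1501 to 2000 bases.

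The limit of 2000 bases is a choice, and spacers just beyond it were occupied at a similar rate. Starts 1801 to 2000 bases apart had a Col-0 peak in 36 of 178 spacers (20.2%) and an ndx1-4 peak in 34 (19.1%). Starts 2001 to 2200 bases apart, outside the rule, had a peak in 38 of 196 (19.4%) and 36 (18.4%). At the other end, the nearest starts with a member in both lists were those of ADF8, an actin-depolymerizing factor, and ULP1B, a ubiquitin-like protease, 60 bases apart. Their peak was 340 bases long in Col-0 and 360 in ndx1-4 and covered both starts. The farthest were those of KAT5, a thiolase of fatty acid breakdown, and LATE, a zinc finger gene, 1993 bases apart, with peaks of 500 and 520 bases at the KAT5 start.

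Members tended to lie at a gene start rather than in the middle of the spacer. The midpoint lay a median of 165.5 bases from the nearer start in Col-0 (quartiles 66.5 and 380.5) and 142.5 in ndx1-4 (59 and 379.5). Within 200 bases of a start lay 163 Col-0 members (54.9%, 49.2 to 60.4%) and 152 ndx1-4 members (55.3%, 49.4 to 61.0%), while 48 (16.2%) and 42 (15.3%) lay over 500 bases from both. Much of the spacer sequence itself lies near a start. Of 2783334 bases, 653600 lay within 100 bases of the nearer start and 519122 in the next 100. The outermost stretches, 10% of the spacer on each side, held the midpoint of 99 Col-0 members (33.3%, 28.2 to 38.9%) and of 97 in ndx1-4 (35.3%, 29.9 to 41.1%). The central stretch of the same total length held 43 (14.5%, 10.9 to 18.9%) and 42 (15.3%, 11.5 to 20.0%).

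A start was reached by 156 Col-0 members (52.5%, 46.9 to 58.1%) and 147 ndx1-4 members (53.5%, 47.6 to 59.3%). Most of these reached exactly 1 start, 141 in Col-0 (76 the left and 65 the right) and 131 in ndx1-4 (75 the left and 56 the right). Members that covered both starts were few, 15 in Col-0 (5.05%) and 16 in ndx1-4 (5.82%). Where a start was reached, the peak ran a median of 97.5 bases into the gene in Col-0 and 108 in ndx1-4, up to 797 and 777 bases at AT1G59865. About as many members reached no start, 141 in Col-0 (47.5%) and 128 in ndx1-4 (46.5%), as reached exactly 1. A spacer rarely held more than 1 member: 13 spacers held 2 members in each list and none held more.

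**Figure D2:**
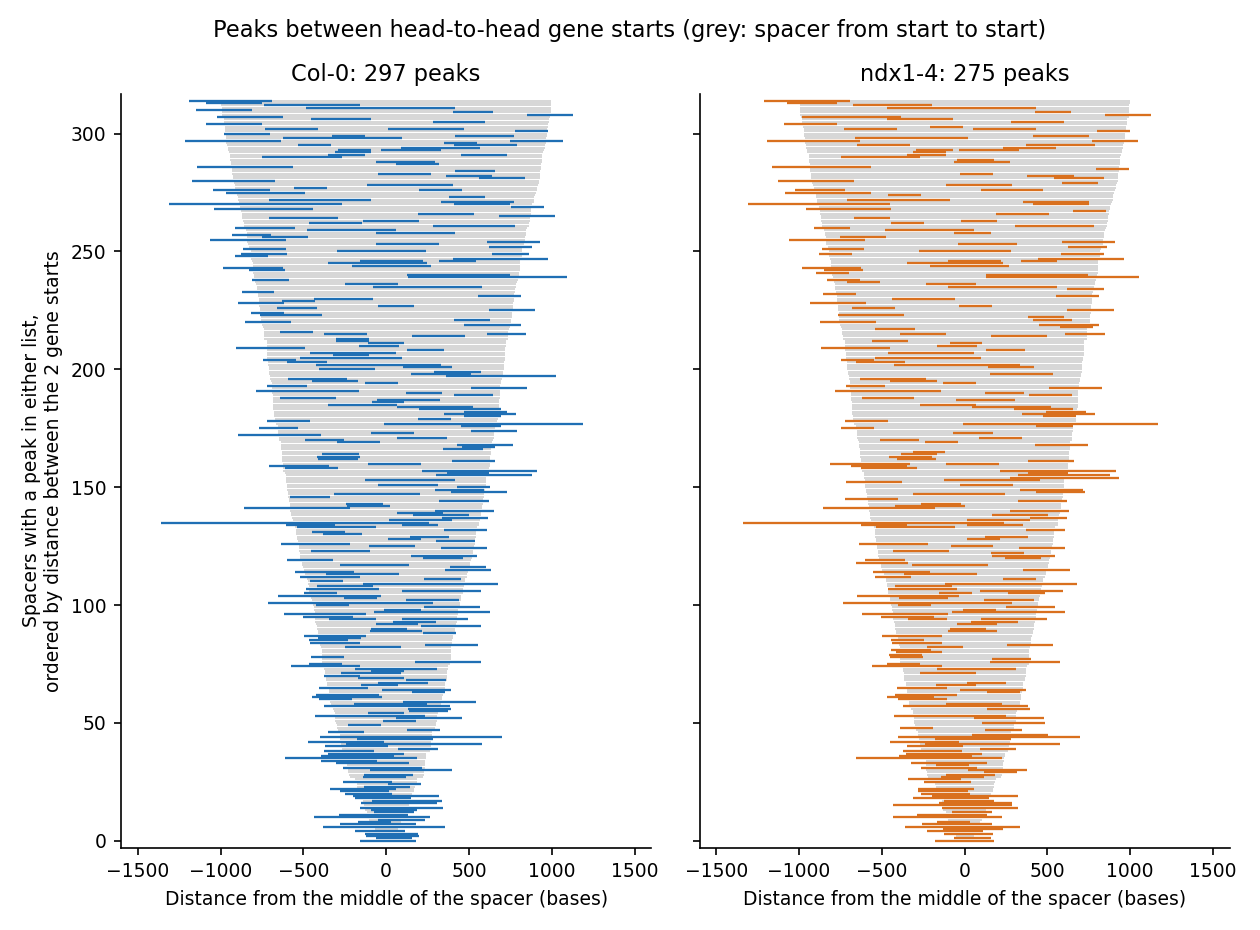
Position of every member (coloured bars) in its spacer (grey, from gene start to gene start), with the distance from the middle of the spacer on the x axis (bases) and the 315 spacers with a member in either list stacked on the y axis in order of start distance, for the 297 members of Col-0 (left) and the 275 of ndx1-4 (right). Many bars sit at an edge of the grey area, and most spacers carry a bar at the same place in both lists.

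The profile of peak coverage around gene starts showed the same placement without regard to the midpoint rule. Each base of a head-to-head spacer was assigned to the nearer of its gene starts (7272 in all). Of the bases 400 to 500 upstream, 3.02% were under a Col-0 peak and 2.67% under an ndx1-4 peak. Coverage was 7.67% and 7.06% in the last 100 bases of the spacer, and 10.1% and 9.30% at 200 to 300 bases inside the gene, where it was near its highest. The genome average was 4.83% in Col-0 and 4.49% in ndx1-4. Promoter spacers thus lay below average in their upstream part and above it next to the start, and the highest values lay inside the genes, outside the reach of the rule. Tandem gene starts gave nearly the same profile, with 2.90%, 7.50% and 10.2% in the same bins in Col-0.

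**Figure D3:**
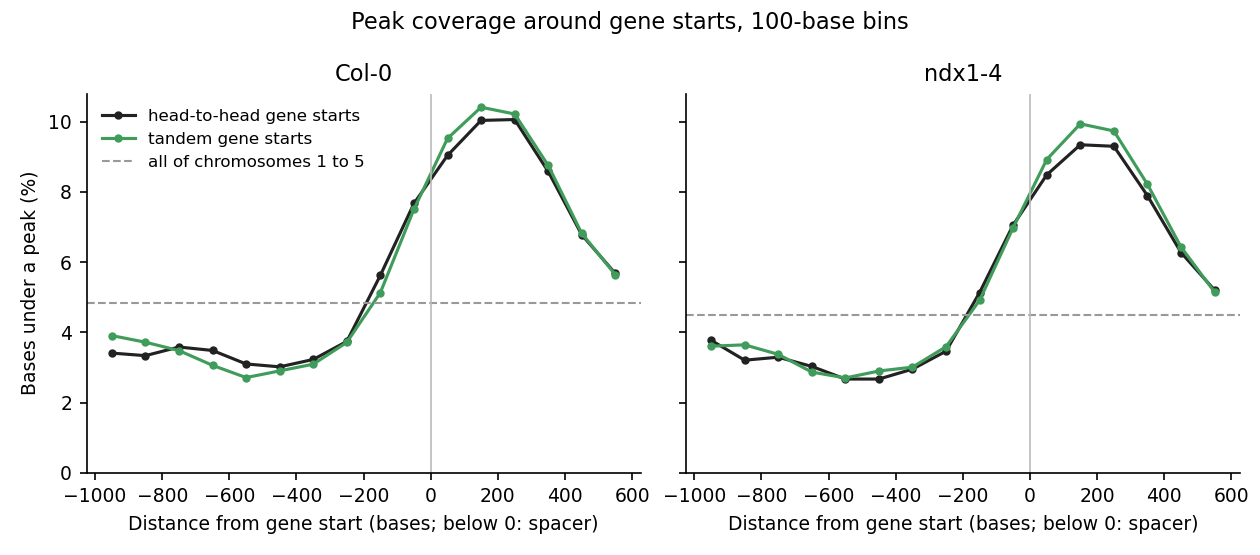
Percent of bases under a peak (y axis) in 100-base bins around annotated gene starts (x axis, bases, negative values in the spacer) for head-to-head genes (black) and tandem genes (green) in Col-0 (left) and ndx1-4 (right). The dashed line is the average over chromosomes 1 to 5, 4.83% and 4.49%, and both kinds of start cross it about 200 bases upstream and peak inside the gene.

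The strength of the members was read from the deposited score, whose unit is not stated, as its percentile within the list. The median percentile was 44.6 in Col-0 and 46.8 in ndx1-4, against 49.8 and 49.5 over all peaks. Among the 10% of each list with the highest scores were 17 Col-0 members (5.72%, 3.60 to 8.97%) and 23 ndx1-4 members (8.36%, 5.64 to 12.2%). Scores ran from 54 to 365 for Col-0 members and from 58 to 337 for ndx1-4 members, while the highest scores of the whole lists were 6678 and 5806. Members of either list had a median length of 320 bases (quartiles 240 and 420), against 340 over all peaks. Members were thus of ordinary strength and length with few extreme cases. Peaks in tandem spacers had a median percentile of 44.6 in Col-0 and 44.0 in ndx1-4.

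The highest-scoring member of both lists lay at the start of AT4G28080, a gene for a tetratricopeptide repeat protein, facing the uncharacterized AT4G28085 across 1765 bases. It spanned chr4:13957681-13958720 in Col-0 (1040 bases, score percentile 99.6) and the first 860 bases of that stretch in ndx1-4 (percentile 99.8), and ran 427 bases into the gene. The spacer held a further member near AT4G28085, 340 bases long with identical edges in both lists. The next in rank in both lists was HBI1-AT2G18320. HBI1 encodes a bHLH transcription factor that promotes cell growth, and its peak of 620 bases in Col-0 and 640 in ndx1-4 (percentiles 98.4 and 99.0) reached neither start.

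Of the other high scorers, AT3G27100-AT3G27110, between genes for an mRNA export factor and an M48 peptidase, had a peak of 540 bases with identical edges in both lists and lay 635.5 bases from the nearer start. MED19A-CLE22, between a subunit of Mediator, the coactivator complex of RNA polymerase II, and a CLE signalling peptide gene, had 1200 bases in Col-0 and 1180 in ndx1-4. This peak covered the CLE22 start and ran 520 and 500 bases into the gene. AT1G27870-AT1G27880 faces a ribonuclease H-like gene with an RNA helicase gene, and its peak of 660 bases in each list was shifted by 20 bases between them. AT1G53705-RTFL9, at a small ROTUNDIFOLIA-like peptide gene, was among the 6 highest in Col-0 (percentile 97.1). AT4G01595-AT4G01600, at a protein kinase gene, was among the 6 highest in ndx1-4 (percentile 98.1). Of these 7 high-scoring spacers, 3 had a peak that reached no start in either list.

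The longest member lay at AT1G59865-PEN3, with 1620 bases in Col-0 and 1580 in ndx1-4. PEN3 is an ABC transporter of defence against fungi, but the peak covered the start of its uncharacterized neighbour. AT5G49690-AT5G49700, between a UDP-glycosyltransferase gene and an AT-hook gene 555 bases apart, had 1100 bases with identical edges in both lists and covered both starts. AT5G40050-AT5G40060, an F-box gene facing a disease resistance gene, had 1000 and 1020 bases. AT5G64320-NPH3 had 960 bases in Col-0 and 920 in ndx1-4 at the start of NPH3, which acts in phototropism. The longest members were thus as long in ndx1-4 as in Col-0 to within 40 bases, except AT4G28080-AT4G28085, which was 180 bases shorter.

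Spacers with 2 members showed whether both genes of a pair could carry a peak. At HSP91-ATERDJ2A, an Hsp70-family gene facing an endoplasmic reticulum J-domain gene 1930 bases away, each start had its own peak. These were 580 and 320 bases long in Col-0 and 560 and 280 in ndx1-4. AT3G54400-AT3G54410 also had a peak at each start, of 280 and 220 bases in Col-0 and 200 and 260 in ndx1-4. In the other spacers at most 1 of the 2 members reached a start, as at UBQ3-AT5G03250, where the larger peak, of 400 bases in both lists, covered the start of AT5G03250 and the other lay in the spacer near the polyubiquitin gene. In AT1G04500-MAC3A, at a gene of a spliceosome-associated complex, both members lay in the spacer and reached no start.

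To ask whether the same promoters were marked in both genotypes, each member was searched for a partner, a peak of the other list that shared at least 1 base. Of the Col-0 members, 250 had a partner (84.2%, 79.6 to 87.9%), and 47 (15.8%, 12.1 to 20.4%) had none, beside 11.9% of all Col-0 peaks and 12% of those in the arms. Of the ndx1-4 members, 251 had a partner (91.3%, 87.3 to 94.1%), and 24 (8.73%, 5.93 to 12.7%) had none, beside 7.44% of all ndx1-4 peaks and 7.38% of those in the arms. The background share lay inside the interval for ndx1-4 and just below it for Col-0. In bulk seedlings fewer cells with an R-loop and fewer R-loops per cell cannot be told apart. The partner was itself a member for 240 members of each list, and for 10 Col-0 and 11 ndx1-4 members it had its midpoint elsewhere.

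Members without a partner were short and of low score. Their median length was 220 bases in Col-0 and 200 in ndx1-4, and their median score percentile 17.6 and 28.1, against 49.8 and 50.7 for members with a partner. The longest of them had 340 bases in Col-0 and 360 in ndx1-4. Over all peaks without a partner the median length was 220 bases in each list, with median score percentiles of 20.7 and 15.0. No ndx1-4 member without a partner scored above percentile 71.1.

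Of the 5 highest-scoring of these in Col-0, 4 are given here. LON4-AIF1 had 280 bases and percentile 56.5. AIF1 is a bHLH protein that opposes brassinosteroid responses, and its spacer had a further member of 220 bases with a partner. CIPK21-AT5G57640, at a calcium-signalling kinase gene, FLA3-AT2G24460 and SAP130b-AT3G55230 had 200 bases each, the shortest length in the list. The FLA3-AT2G24460 peak covered the start of AT2G24460, a RING finger gene, and not that of FLA3, an arabinogalactan protein gene. The SAP130b-AT3G55230 peak reached no start and lay nearer to AT3G55230, a dirigent-like gene, than to the splicing factor gene SAP130b. In ndx1-4 the first was AT3G51120-AT3G51130, at a zinc finger gene (200 bases, percentile 71.1), followed by AT2G01210-AT2G01220, AT4G25160-AT4G25170, AT4G22410-AT4G22430 and AT2G19700-AT2G19710, of 200 to 220 bases and percentiles of 40.9 to 49.5. AT4G28340-AT4G28350 held 2 members in ndx1-4, of 200 and 220 bases, neither with a partner.

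Where members were paired, the lists placed them alike. All 250 Col-0 members with a partner had exactly 1. The Col-0 peak was the longer in 108 pairs (43.2%, 37.2 to 49.4%), the ndx1-4 peak in 66 (26.4%, 21.3 to 32.2%), and 76 were equal, beside 42.4%, 28.6% and 29.0% of all one-to-one pairs. Both edges were identical in 61 pairs (24.4%), beside 21.8% of all pairs. At least 100 bases narrower in ndx1-4 were 20 pairs (8.0%, 5.24 to 12.0%), beside 4.52% of all pairs, and 9 (3.6%, 1.91 to 6.70%) were at least 100 bases wider, beside 2.84%. The change in length ran from -260 to 200 bases with a median of 0. Across the 250 pairs, whose peaks share their sequence, the Spearman correlation of the score percentiles was 0.950, given as a description.

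The largest losses of length were at RABC2A-EXO70A1, between a Rab GTPase gene and an exocyst subunit gene (480 bases in Col-0 and 220 in ndx1-4), and at NSF-SFR6, between a vesicle fusion ATPase gene and a Mediator subunit gene of cold tolerance (420 and 220). AT4G28080-AT4G28085 (1040 and 860), AT1G09660-AT1G09665 (480 and 320) and AT1G15850-AT1G15860 (420 and 280) followed. Gains were largest at OXS3-AT5G56555, at an oxidative stress gene (400 and 600), AT1G24230-AT1G24240, at a ribosomal protein gene (200 and 360), and CP29-AT3G53470, at a chloroplast RNA-binding protein gene (260 and 420). AT3G04590-AT3G04600 (220 and 340) and AT3G06970-AT3G06980 (340 and 460) came next. At RABC2A-EXO70A1 the score percentile was also lower in ndx1-4 (42.5 against 47.4), whereas at AT1G09660-AT1G09665 it was higher (46.8 against 41.8).

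**Figure D4:**
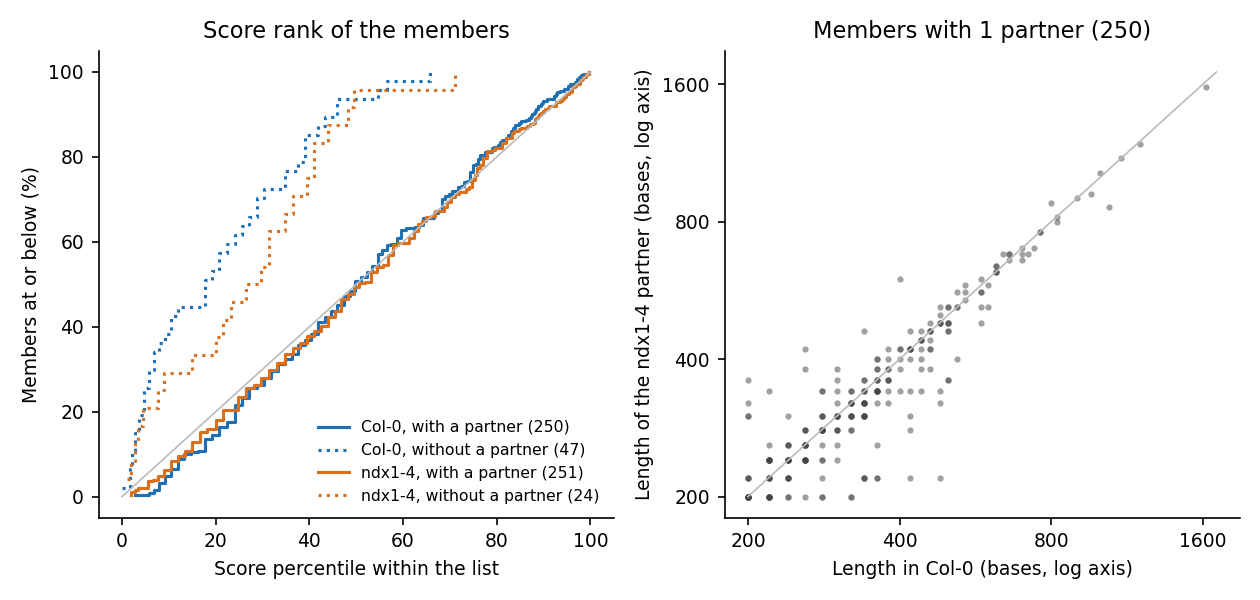
Left, cumulative percent of members (y axis) at or below each score percentile of their list (x axis), for members with (solid) and without (dotted) a partner in Col-0 (blue) and ndx1-4 (orange), with the diagonal of an even spread. Right, length of the ndx1-4 partner against that of the Col-0 member for 250 pairs (bases, log axes). Members with a partner follow the diagonal, those without lie at low percentiles, and long peaks stay close to equal length.

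Base composition set the members apart from the other peaks of the lists. Their mean GC content was 30.8% ± 4.30 (SD over 297 peaks) in Col-0 and 30.9% ± 4.30 (SD over 275 peaks) in ndx1-4, against 34.6% ± 4.58 and 34.5% ± 4.54 over all peaks. Peaks in tandem spacers had 31.3% and 31.4%, and those in convergent spacers 32.5% and 32.2%. The middle 300 bases of head-to-head spacers without a member and with starts over 500 bases apart had 29.8%. The low GC content was thus that of the spacers themselves.

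Purines and pyrimidines were split more unevenly between the strands in members than in spacers without one. In 300 bases around the midpoint, purines and pyrimidines differed by a mean of 14.8% of the bases in Col-0 members and 15.4% in ndx1-4 members. These windows run into a gene where the midpoint is near a start. The middle of the 1875 spacers without a member and with starts over 500 bases apart gave 6.85%, and the 300 bases before their left and right gene starts gave 7.28% and 6.99%. Peaks in tandem spacers had 16.4% and 16.1%, and all peaks 19.1% and 18.8%. A run of at least 20 bases of 1 class was present in 82 Col-0 members (27.6%, 22.8 to 33.0%) and 77 ndx1-4 members (28.0%, 23.0 to 33.6%), against 66 of the 1875 spacer middles (3.52%, 2.78 to 4.45%) and 25.7% and 25.3% of all peaks. Strand asymmetry and long runs were thus shared by members with DRIP peaks at large and were rarer in spacers without a member. Some spacers without a member were still reached by a peak whose midpoint lay elsewhere. Over all 3321 spacers without a member, short ones included, the asymmetry was 7.19% and such long runs were present in 5.21%. Members over 500 bases from both starts had an asymmetry of 15.3% in Col-0 and 16.4% in ndx1-4, so the feature was not limited to those near a gene, although long runs were fewer there (6 of 48, 12.5%, and 6 of 42, 14.3%) than within 200 bases of a start (37.4% and 36.2%).

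The purine-rich strand had no fixed side. Upstream of the nearer gene, purines were in excess on the coding strand in 161 of 295 Col-0 members that had enough bases there and in 133 of 273 ndx1-4 members. Inside the nearer gene, GC skew, the excess of G over C relative to their sum, was -15.0% on the coding strand in Col-0 members and -14.2% in ndx1-4 members, against -2.78% and -3.19% in the upstream part. Head-to-head genes as a whole had -9.63% in the first 100 bases and -10.6% in the next 100, so C exceeded G on the coding strand over all of these genes too.

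Of the 8 motifs searched, the purine repeats that make such runs had the largest ratio between members and spacers without one. GAAGAAGAA, searched on both strands, was found in 54 Col-0 members (18.2%, 14.2 to 23.0%) and 49 ndx1-4 members (17.8%, 13.7 to 22.8%), against 2.40% of the spacer middles and 2.88% and 3.31% of the windows before their left and right starts. GAGAGAGA was found in 42 (14.1%, 10.6 to 18.6%) and 35 (12.7%, 9.30 to 17.2%), against 1.92%, 3.63% and 4.16%. AAAAAAAA was found in 48.8% and 50.2%, against 34.5%, 37.9% and 35.6%. The purine repeats were at least as frequent in all peaks (24.7% for GAAGAAGAA and 15.9% for GAGAGAGA in Col-0), whereas AAAAAAAA was found in 29.1% of all Col-0 peaks and 46.8% of those in tandem spacers. Several runs seen in the printed sequences, such as the repeated GAA on the minus strand of ADF8-ULP1B, are of this kind. In the middles of all 3321 spacers without a member, short ones included, GAAGAAGAA was found in 6.32% and GAGAGAGA in 6.44%. In members over 500 bases from both starts, GAAGAAGAA was found in 16.7% in Col-0 and 14.3% in ndx1-4. GAGAGAGA was found there in 8.33% and 9.52%.

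Compared with spacers without a member, most promoter elements were rarer or about as frequent in members. TGGGCC, the core of the site II element of genes for growth and translation, was found in 15 Col-0 members (5.05%, 3.08 to 8.16%) and 18 ndx1-4 members (6.55%, 4.18 to 10.1%), against 8.43% of the spacer middles and 18.2% and 14.8% before their left and right starts. TATAAA, the TATA box, was found in 38.4% and 40.7%, against 51.7%, 55.9% and 58.3%. CCAAT was found in 51.5% and 51.3%, against 50.5%, 52.5% and 53.2%, and CACGTG (the G-box) in 5.05% and 5.09%, against 4.43%, 7.52% and 8.21%. All Col-0 peaks had lower shares than the members, with TGGGCC in 2.45%, TATAAA in 31.3%, CCAAT in 43.8% and CACGTG in 2.18%. Col-0 peaks in tandem spacers had 3.23%, 43.5%, 44.2% and 3.08%. AAACCCTA (the telo-box) was found in 5.39% (3.34 to 8.57%) and 6.18% (3.90 to 9.68%), against 2.51%, 3.95% and 4.00%, and in 6.43% of all Col-0 peaks. In the middles of all 3321 spacers without a member, short ones included, TGGGCC was found in 21.0%, CACGTG in 8.04% and AAACCCTA in 7.11%. The higher telo-box share of members was thus not seen against spacers of every length. The windows are 300 bases long in every set, matches on both strands count and may overlap other motifs, and a match is a string of letters and no proof of a working site. Windows of members near a start, and of spacers under 300 bases, run into a gene. Those of spacers with starts over 500 bases apart do not. In Col-0, AAACCCTA was found in 6.75% of members within 200 bases of a start. It was found in 0 of 48 over 500 bases from both.

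**Figure D5:**
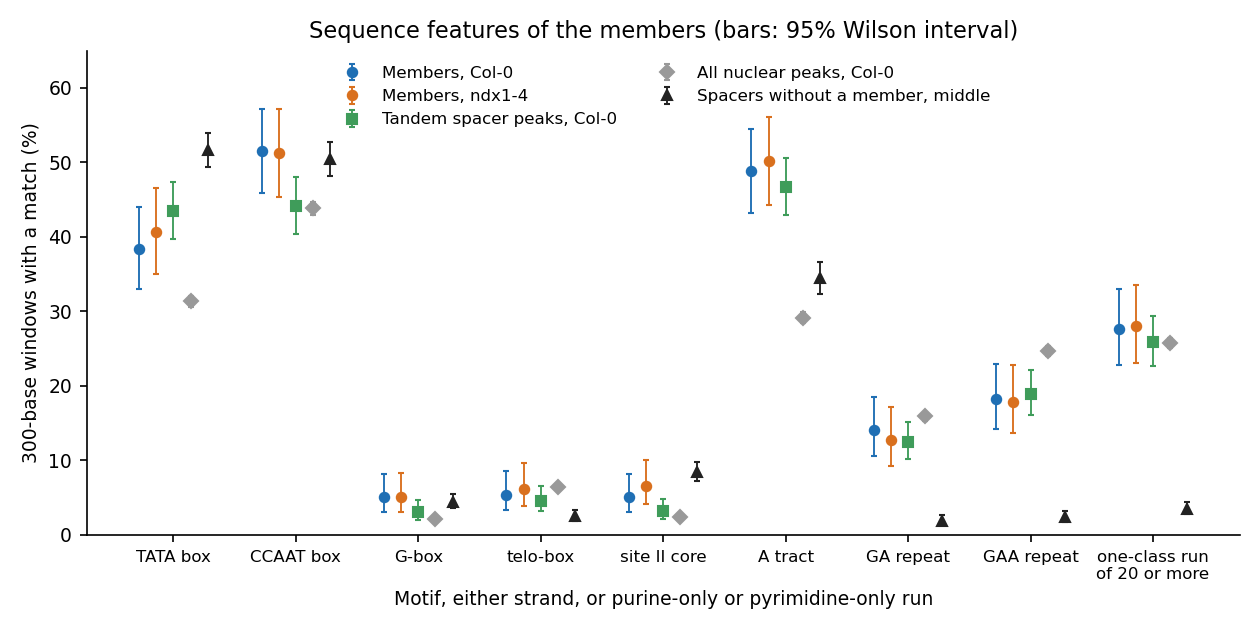
Percent of 300-base windows (y axis) with each motif on either strand, or with a purine-only or pyrimidine-only run of at least 20 bases (x axis), in Col-0 members (blue), ndx1-4 members (orange), peaks of tandem spacers (green) and all nuclear peaks (grey) of Col-0, and the middle of head-to-head spacers without a member whose starts are over 500 bases apart (black), with 95% Wilson intervals. Members and other peaks lie together well above the spacers for the GA and GAA repeats and the long runs, while the spacers lie above the members for the TATA box.

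Other annotated genes lay under some members. A gene that is not protein-coding was overlapped by 28 Col-0 members (9.43%, 6.60 to 13.3%) and 27 ndx1-4 members (9.82%, 6.84 to 13.9%), against 13.2% and 13.3% of all peaks. In Col-0 these were a long noncoding RNA gene for 17 members, a miRNA gene for 3, a transcribed pseudogene for 3, other noncoding RNA for 2 and unclassified RNA for 3. Spacers that contained such a gene held a member in 50 of 343 cases in Col-0 (14.6%, 11.2 to 18.7%) and in 49 in ndx1-4 (14.3%), against 234 of 3293 (7.11%) and 213 (6.47%) for the rest. Spacers with such a gene were longer, with a median start distance of 1123 against 632 bases, and the part of length in this difference was not tested.

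Gene function was read from the product names, with spacers counted where at least 1 of the genes belonged to a list. The transcription factor list took every product name with transcription factor, DNA-binding, homeobox or zinc finger. It therefore also held genes of other functions, such as ZIGA4, an ARF GAP-like zinc finger gene. Against 7.81% and 7.21% of all spacers, those with a gene of this list held a member in 34 of 289 cases in Col-0 (11.8%, 8.54 to 16.0%) and 31 in ndx1-4 (10.7%, 7.66 to 14.8%). Their starts were a median of 882 bases apart, farther than the 674 of all spacers. Examples beside HBI1 were WOX1-AT3G18020, at a homeobox gene of leaf blade outgrowth (900 bases, score percentile 94.3 in Col-0), AT5G41560-WRKY24 (660 bases, percentile 92.3) and AT4G38950-BBX19 (500 bases, percentile 87.6). At the low end, ribosomal protein genes, which belong to short spacers (median 227 bases), had a member in 7 of 126 (5.56%, 2.72 to 11.0%) and 5 (3.97%), and none of these scored above percentile 59.7 in Col-0. Pentatricopeptide and tetratricopeptide repeat genes had 11 of 203 (5.42%) and 10 (4.93%), with a median distance of 331 bases.

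The remaining lists held between 24 and 376 spacers each. Protein kinase genes had 26 of 320 in Col-0 (8.13%) and 28 in ndx1-4 (8.75%), ubiquitin and proteasome genes 30 of 376 (7.98%) and 25 (6.65%), and RNA-handling genes 13 of 181 (7.18%) and 14 (7.73%). The RNA-handling examples included CAF2-INO, between a gene for chloroplast intron splicing and a regulator of ovule growth (760 bases, percentile 83.1). They also included TEX1-AT5G56140 (300 bases, percentile 76.5), counted for AT5G56140, an RNA-binding KH domain gene. The other gene of that spacer, TEX1, belongs to the THO complex of mRNA export. Chaperone genes had 8 of 82 in both lists (9.76%), with HSP21-AT4G27680, at a plastid heat shock gene (360 bases, percentile 92.6), as the highest. Genes with chloroplast, photosystem or chlorophyll in the product name had 7 of 49 (14.3%, 7.10 to 26.7%) and 6 (12.2%). These included AT1G12150, named for chloroplast movement. Mitochondrial genes had 4 of 52 (7.69%) and 3 (5.77%), and translation genes 5 of 66 (7.58%) and 3 (4.55%), with EIF4A1-AT3G13930 at an initiation factor gene (380 bases, percentile 59.7). Histone genes had 2 of 24 (8.33%) and 4 (16.7%), among them the spacer of MGH3, a histone H3 of male gametes. In Col-0 the peak of that spacer covered the start of the neighbour AT1G19880. The Col-0 peak of AT5G02550-HTA12 likewise covered the start opposite the histone gene. DNA repair and replication genes had 1 of 26 (3.85%) in both lists, CNGC4-MRE11, at a gene of double-strand break repair. The shares ran from 3.85% to 14.3% in Col-0 and from 3.85% to 16.7% in ndx1-4, and the interval of each of these lists contained the share of all spacers in both genotypes.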

How the data were processed

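DRIP-seq peaks of 10-day-old Col-0 and ndx1-4 seedlings were analysed. Groups came from the sample titles: each genotype had 1 input library, 2 IP libraries and 1 IP library with RNase H treatment, and 1 deposited peak list. Each list held a start, an end and a whole-number score that the authors deposited with each peak. What 1 unit of the score stands for, how the libraries entered the calls and the depth of each library are not given in the sources used here. Scores were therefore ranked within a list only. The submitters' processing notes name the TAIR10 build and Bowtie2, SAMtools, Picard, deepTools and MACS2, and in each list 2 peaks ended exactly at a chromosome end of the reference. Peak edges lay on a 20-base grid, the shortest peak had 200 bases and the lowest score was 53.

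Genes were the 27444 protein-coding genes of RefSeq TAIR10.1 on chromosomes 1 to 5, with sequence read from its genome. Left out as pericentromeric were 12.6 to 17.2 Mb of chromosome 1, 1.2 to 7.1 Mb of chromosome 2, 10.7 to 16.1 Mb of chromosome 3, 2.7 to 6.1 Mb of chromosome 4 and 9.9 to 14.6 Mb of chromosome 5. Peaks sharing at least 1 base were partners. Motifs and composition were taken in 300-base windows. Gene lists were matched to product names, with PPR, RRM, DNAJ and RING matched as whole words. Named spacers were those of the 6 highest-scoring, the 5 longest and the 5 highest-scoring unpartnered members of each list, the 5 largest gains and 5 largest losses of length, spacers with 2 members, those with the nearest and farthest starts, and up to 4 examples per gene list. Of the 5 unpartnered Col-0 members, 1 is not reported here, and some spacers with 2 members are given only in the count. TEX1-AT5G56140 is printed as a sequence by choice after its values were seen. Members and lists were chosen with earlier results of these data known. Shares have 95% Wilson intervals. Peaks of single replicates were not used here and nothing was tested between genotypes. Alternatives varied the score, distance and overlap limits. The code was tested on simulated peaks. Python 3.11.15, numpy 2.4.6, scipy 1.17.1 and matplotlib 3.10.9 were used.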

Additional observations from a re-analysis of the deposited data

How the results depend on the processing

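Of 62 recalculations of 18 values under other settings, 27 were classed as unchanged and 35 as moved. Shares, medians and means were judged by the interval of the value reported. The numbers of members have no interval. Leaving out spacers with a gene that is not protein-coding gave 245 members in Col-0 and 224 in ndx1-4, still classed as unchanged. Restricting each list to the 50% of peaks with the higher score left 126 members in Col-0 and 128 in ndx1-4. Shares of occupied spacers became 3.36% and 3.41% for head-to-head, 2.81% and 2.76% for tandem and 2.75% and 2.58% for convergent spacers, in Col-0 and ndx1-4 respectively. Under the same restriction the share of Col-0 members with a partner was 92.9%, the median length 390 and 400 bases, the share of Col-0 members that reached a start 58.7% and the mean GC content of Col-0 members 31.6%. With a limit of 1000 bases there were 105 and 98 members, occupied shares of 4.32% and 3.98% (head-to-head), 3.67% and 3.66% (tandem) and 2.98% and 2.62% (convergent), and 73.3% and 76.5% of members reached a start. Counting peaks that shared at least 1 base with the spacer gave 706 and 658 peaks. The shares were 18.1% and 16.7% (head-to-head), 13.9% and 13.2% (tandem), and 9.87% and 9.41% (convergent). Head-to-head spacers were occupied more often than tandem ones, as under the main rule, and the part of spacer length in this difference was not tested. Spacers of at least 200 bases were occupied in 9.61% and 8.84%. A start within 100 bases of the peak was reached by 62.6% and 64.7%. No paired analysis was possible because a genotype is represented by 1 list without replicate numbers, which also left no replicate to omit. Depth is unknown, so a peak of 1 list that the other lacks cannot be called absent there.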
